A study of Mus musculus with 12 samples.

Results

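The genes described here are 9 published markers of the radial glia-like cell, the neural stem cell of the adult dentate gyrus: Hopx, Emx2, Lhx2, Tfap2c, Thrsp, Fabp7, Lpar1, Rhcg and Vnn1. They were taken by name from the 50600 genes of the count table, and all 9 were found there. They were compared over 12 RNA-seq libraries from dentate gyri of Nestin-GFP mice of 6 to 9 weeks, which carry a green fluorescent protein reporter driven by nestin regulatory sequences. No other allele or treatment is named for any group. Live cells negative for CD31, CD45, O1 and O4 were sorted as stem cells if positive for GLAST and GFP, as progenitors if positive for GFP alone and as astrocytes if positive for GLAST alone, with 50 cells and 4 libraries of each type. GLAST is the glutamate transporter encoded by Slc1a3. The stem cell gate therefore rests on a transgene and 1 surface protein, and each value is a mean over 50 cells. In such pools, fewer cells with a transcript and less of it per cell cannot be told apart. The study describes the 4 libraries of a cell type as biological replicates and says that 1 mouse brain per replicate is enough. The labels give no animal for any library. Libraries of different cell types may therefore come from the same mice, and the tests did not pair them. The p-values measure the spread between these libraries.

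Radial glia-like cells line the subgranular zone and send a radial process through the granule cell layer. Most are quiescent. When activated, they give rise to intermediate progenitors that mature through neuroblasts into granule neurons, and they share many transcripts with astrocytes. The 9 markers fall into groups by function. Hopx, Emx2, Lhx2 and Tfap2c encode transcriptional regulators, Thrsp and Fabp7 act in lipid metabolism, and Lpar1, Rhcg and Vnn1 encode proteins of the cell surface (a lysophosphatidic acid receptor, an ammonium transporter and an enzyme that splits pantetheine).

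In these libraries the 9 markers did not share a pattern. Hopx and Thrsp were 2.88-fold and 2.65-fold higher in stem cells than in progenitors. Fabp7 had means of 291 CPM in stem cells and 290 CPM in progenitors (counts per 1000000 counts on genes, after TMM scaling of the library sizes). Emx2 and Lhx2 had their lowest mean in progenitors, without passing edgeR's test. DESeq2 called both between stem cells and progenitors, where it called 2394 genes and edgeR 1327. Tfap2c was counted in the 4 progenitor libraries and in no other library. Lpar1 had no count in any stem cell library, Rhcg had counts mainly in progenitors, and Vnn1 had 6 counts in 1 stem cell library and none elsewhere.

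**Figure D1:**
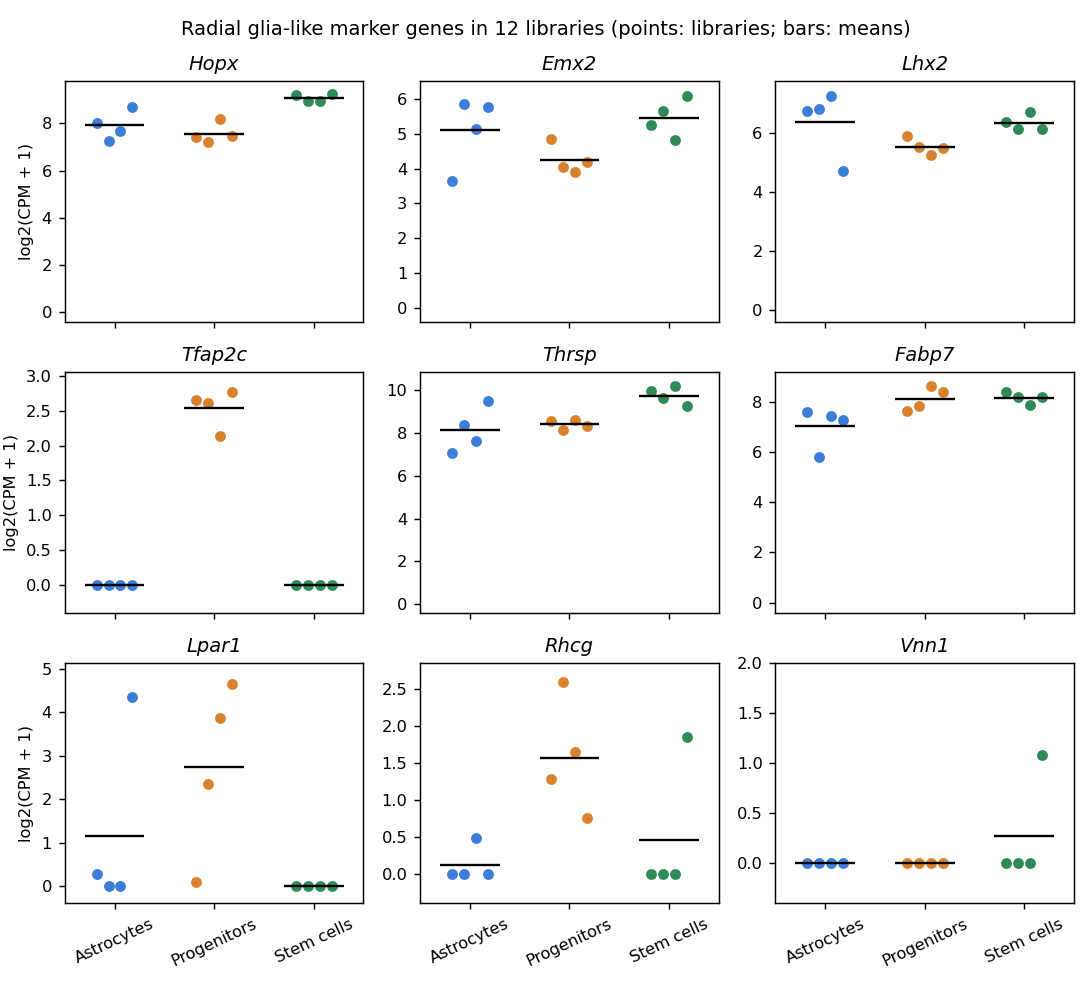
Level of each marker gene in each of the 12 libraries, as log2(CPM + 1) on the vertical axis, which differs between panels. Points are libraries and black bars are the means of the 4 log2 values of a cell type. Hopx and Thrsp sit higher in the stem cell libraries than in the progenitor libraries, whereas Tfap2c is above 0 only in the 4 progenitor libraries.

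Total counts on genes were between 5031166 and 12535028 per library and 3 counts, taken as the floor, correspond to between 0.239 and 0.596 CPM. The sorted populations were checked against markers. Slc1a3 was counted in all 12 libraries, also in the progenitors sorted as GLAST-negative (2235 to 3403 CPM, against 6768 to 9249 CPM in stem cells). Nes, the gene whose regulatory sequences drive the reporter, had 0, 4, 0 and 0 counts in the stem cell libraries, against 291, 1, 62 and 163 counts in the progenitor libraries. Of 10 astrocyte markers, edgeR called 8 as higher in stem cells than in progenitors, beside 3.66% of all genes tested. The 10 markers summed to 12447 to 14608 CPM in stem cells, 9155 to 11494 CPM in astrocytes and 3339 to 4908 CPM in progenitors. Of the 10, Grin2c (445 against 110 CPM), Fgfr3, S100b, Slc6a11 and Itih3 had a higher mean in astrocytes than in stem cells. The remaining genes of this list had a higher mean in stem cells, and edgeR called 0 of the 10 between these cell types. Markers of oligodendrocyte precursors summed to 1732 to 2715 CPM in progenitors and to at most 320 CPM in any other library, and those of intermediate progenitors and neuroblasts to 707 to 999 CPM in progenitors and to at most 240 CPM elsewhere. Mural markers summed to 912 to 2100 CPM in progenitors a, c and d and to at most 192 CPM in the other 9 libraries. Vtn had the highest progenitor mean of that list (811 CPM), whereas Pdgfrb had 69 CPM in progenitors, 66.5 CPM in astrocytes and 60.5 CPM in stem cells. Mature oligodendrocyte markers summed to 3205, 1453, 618 and 337 CPM in astrocytes a to d, against 249 to 830 CPM elsewhere. Only astrocytes a and b were thus above all other libraries, and Cnp of that list had its highest mean in stem cells (345 CPM). Neuronal markers summed to 176 to 1200 CPM in astrocytes, against 50.6 to 185 CPM elsewhere. Of these, Rbfox3 and Gad1 had their highest mean in progenitors (29.7 and 24.7 CPM). Microglial markers summed to at most 111 CPM, endothelial ones to at most 80.3 CPM and ependymal ones to at most 86.8 CPM in any library. Cell cycle genes summed to 35.4 to 474 CPM in progenitors, 6.87 to 85.1 CPM in stem cells and 1.06 to 40.7 CPM in astrocytes. The part of these other cell types in the values below was not tested.

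Promoter sequences were found for 7 of the 9 genes, in 11 windows of 250 bases before to 50 bases after a RefSeq transcription start (RefSeq on GRCm38.p6). All 3 windows (2 of Hopx, 1 of Thrsp) of the 2 genes that were higher in stem cells than in progenitors are shown, with that of Fabp7, which did not differ between them, and that of Emx2. All are written 5′ to 3′ on the strand of the gene, and capitals mark the motif letters.
Hopx, chr5:77115074-77115373, minus strand: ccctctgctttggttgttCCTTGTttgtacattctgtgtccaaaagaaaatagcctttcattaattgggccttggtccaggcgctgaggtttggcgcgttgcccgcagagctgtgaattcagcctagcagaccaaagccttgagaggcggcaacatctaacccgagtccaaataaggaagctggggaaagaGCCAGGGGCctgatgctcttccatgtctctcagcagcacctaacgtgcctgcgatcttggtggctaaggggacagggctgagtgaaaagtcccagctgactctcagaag
Hopx, chr5:77095218-77095517, minus strand: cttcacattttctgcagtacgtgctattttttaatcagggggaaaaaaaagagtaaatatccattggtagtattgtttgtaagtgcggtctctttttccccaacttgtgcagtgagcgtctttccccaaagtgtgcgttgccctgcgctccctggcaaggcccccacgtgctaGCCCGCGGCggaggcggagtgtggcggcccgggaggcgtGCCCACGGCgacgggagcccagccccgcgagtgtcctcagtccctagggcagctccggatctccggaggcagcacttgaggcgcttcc
Thrsp, chr7:97417501-97417800, minus strand: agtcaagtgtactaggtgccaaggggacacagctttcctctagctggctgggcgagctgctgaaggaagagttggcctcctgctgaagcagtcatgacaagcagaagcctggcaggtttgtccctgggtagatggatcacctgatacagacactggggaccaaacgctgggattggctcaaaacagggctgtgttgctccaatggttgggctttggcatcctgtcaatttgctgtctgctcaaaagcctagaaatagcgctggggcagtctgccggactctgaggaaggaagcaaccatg
Fabp7, chr10:57784673-57784972, plus strand: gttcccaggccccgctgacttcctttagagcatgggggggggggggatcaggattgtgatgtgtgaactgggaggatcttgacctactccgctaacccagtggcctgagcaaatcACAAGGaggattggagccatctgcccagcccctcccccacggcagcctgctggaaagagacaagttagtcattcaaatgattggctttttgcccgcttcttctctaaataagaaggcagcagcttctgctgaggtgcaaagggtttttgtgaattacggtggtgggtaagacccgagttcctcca
Emx2, chr19:59458440-59458739, plus strand: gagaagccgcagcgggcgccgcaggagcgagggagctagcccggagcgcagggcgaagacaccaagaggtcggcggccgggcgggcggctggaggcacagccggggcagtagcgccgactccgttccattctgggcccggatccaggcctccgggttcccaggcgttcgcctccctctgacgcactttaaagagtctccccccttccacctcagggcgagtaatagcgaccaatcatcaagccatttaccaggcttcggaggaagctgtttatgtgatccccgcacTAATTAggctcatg

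The motifs searched on both strands were ACAANG for SOX factors, GCCNNNGGC for AP-2 factors, the family of Tfap2c, and TAATTA for homeodomain factors, the family of Emx2 and Lhx2. Positions are those of the first letter of a match, counted with the first transcribed base as 1. The first Hopx window held 1 match to the SOX letters, at position -232 from the start, and 1 to the AP-2 letters, at position -59. The second held 2 AP-2 matches, at positions -77 and -38, and no SOX match. The Fabp7 window held 1 SOX match, at position -135, and the Emx2 window 1 homeodomain match, at position 37. No motif letters were found in the Thrsp window. Over the 11 windows of the markers, 5 held a SOX match, 4 an AP-2 match and 2 a homeodomain match. Of 32851 promoter windows of the same length, 41.2% held SOX letters, 16.6% AP-2 letters and 5.29% homeodomain letters. Of 3 AP-2 matches in 1 window of Lhx2, those at -182 and -175 overlapped, and several windows belong to 1 gene.

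Hopx encodes a small homeodomain protein that does not bind DNA itself and marks quiescent stem cells in several tissues. The gene lies on the minus strand of chromosome 5 (77086988 to 77115121, GRCm38). It had 586, 493, 499 and 598 CPM in stem cells 1 to 4. Progenitors a to d had 170, 146, 287 and 174 CPM, and astrocytes a to d had 258, 153, 206 and 411 CPM. Every stem cell library exceeded every library of the other cell types, and those of progenitors and astrocytes overlapped. The means were 544 ± 56 CPM in stem cells, 257 ± 111 CPM in astrocytes and 194 ± 63 CPM in progenitors (SD, n = 4 each), and the spread of stem cells was the smallest relative to its mean (10.3%, against 32.5% in progenitors and 43.2% in astrocytes).

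Between stem cells and progenitors the log2 fold change of Hopx was 1.52 (SE 0.23, edgeR's quasi-likelihood test, Benjamini-Hochberg adjusted p = 0.0037). Hopx was 1 of 3 markers called in this comparison of the 7 that could be tested, where 8.6% of all 15427 genes tested were called, 3.66% as higher in stem cells and 4.95% as higher in progenitors. Among the 3 was Tfap2c, which passed the count filter through progenitors alone, and without it 2 of 6 were called. Against astrocytes the log2 fold change was 1.09 (SE 0.34) and did not pass the test (edgeR adjusted p = 0.24), although the libraries did not overlap. Progenitors and astrocytes differed by -0.40 (SE 0.40, edgeR adjusted p = 0.68). The difference in mean CPM was -62.7, but 7.96 with unscaled library sizes, a scaling that also moved the median of all genes (given with Thrsp). Counting was done without regard to strand, and 27.2% of the exonic bases of Hopx are shared with Hopxos, a noncoding gene on the opposite strand. Reads from the shared bases cannot be told apart by strand. The Hopxos count was between 0.351 and 0.441 of the Hopx count in each library, and Hopxos was also the gene with the most similar pattern (Pearson's r = 0.99 over 12 libraries, among 5622 genes).

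Emx2 encodes a homeodomain factor of the dorsal telencephalon that is needed for the hippocampus to form, on the plus strand of chromosome 19 (59458372 to 59465357). It had 36.9, 49.3, 27.5 and 67.1 CPM in stem cells 1 to 4 and 27.7, 15.5, 14 and 17.3 CPM in progenitors a to d. Astrocytes a to d had 11.5, 56.8, 34.6 and 54.1 CPM. Stem cell and progenitor libraries overlapped by a narrow margin, between stem cell 3 and progenitor a, and astrocytes covered nearly the whole range. The log2 fold change between stem cells and progenitors was 1.32 (SE 0.42) and did not pass edgeR's test (adjusted p = 0.094), but DESeq2 called it (adjusted p = 0.022). In this comparison DESeq2 called 2394 genes and edgeR 1327. The other differences were smaller relative to their errors, at -1.08 (SE 0.79) for progenitors over astrocytes and 0.21 (SE 0.78) for stem cells over astrocytes (edgeR adjusted p = 0.54 and 0.97). Emx2 shares 8.79% of its exonic bases with Emx2os on the opposite strand. Emx2os had means of 36.2 CPM in stem cells, 35.7 CPM in progenitors and 53.7 CPM in astrocytes.

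Lhx2 encodes a LIM homeodomain factor that keeps cortical progenitors in a proliferative state and specifies cortex against the hippocampal organizer, on the plus strand of chromosome 2 (38339281 to 38369733). It had 80.9, 68.8, 103 and 68.4 CPM in stem cells, 57.9, 45.1, 36.6 and 43.3 CPM in progenitors and 106, 112, 152 and 25.1 CPM in astrocytes, each in library order. The stem cell and progenitor libraries did not overlap. In astrocytes, 3 libraries were above the highest stem cell library, and astrocyte d was below every other library. The log2 fold change between stem cells and progenitors was 0.85 (SE 0.27), which edgeR did not call (adjusted p = 0.086) and DESeq2 did (adjusted p = 0.023). Over astrocytes it was -1.11 (SE 0.61) in progenitors and -0.30 (SE 0.60) in stem cells (edgeR adjusted p = 0.39 and 0.93), and the second of these was near 0 (0.02) without astrocyte c.

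Among 8 other transcription factors of the dorsal telencephalon, 7 could be tested between stem cells and progenitors. Fezf2, a factor of cortical projection neurons and radial glia, was higher in stem cells (log2 fold change 1.25, SE 0.22, edgeR adjusted p = 0.0077). Zbtb20, a hippocampal identity factor, was lower (-0.87, SE 0.19, adjusted p = 0.02). Emx1, the paralogue of Emx2, passed the filter through progenitors alone, where it had 10.9 to 19.2 CPM (118 to 230 counts). It had at most 1 count in a stem cell library and 0, 52, 0 and 0 counts in astrocytes. Nr2f1 was lower in progenitors than in astrocytes (-1.79, SE 0.47, edgeR adjusted p = 0.041). Of 13 LIM homeodomain genes and their cofactors, 3 could be tested between stem cells and progenitors and none was called by edgeR. Lhx9 had 55 to 399 counts in progenitors and at most 2 counts in astrocytes, and entered that comparison through progenitors alone, so its edgeR call (adjusted p = 0.019) gives no support. Lhx3, Lhx5, Lhx8, Isl1, Isl2 and Lmx1a had no count in any library.

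Tfap2c encodes AP-2γ, a factor reported in basal progenitors of the cortex and in the adult dentate lineage, on the plus strand of chromosome 2 (172549593 to 172558622). It had 77, 61, 37 and 68 counts in progenitors a to d (5.28, 5.1, 3.42 and 5.85 CPM) and no count in any stem cell or astrocyte library. The 0 counts allow up to 0.0941 counts per 1000000 over the 31866943 counts of the stem cells and up to 0.128 over the 23384527 counts of the astrocytes, which covers counting error only. Set against 3 counts in each library, the progenitor mean was at least 12-fold higher than in stem cells and at least 8.21-fold higher than in astrocytes. Tfap2c passed the count filter through progenitors alone, so that it had to differ, and its edgeR calls (adjusted p = 0.0081 and 0.016) add no support to these values. Without the filter the adjusted p against astrocytes was 0.095. Apart from Tfap2c, edgeR called 0 of the 6 markers tested between astrocytes and progenitors, where 8.63% of 14806 genes were called (6.18% as higher in progenitors and 2.45% as higher in astrocytes). Fabp7 alone of these 6 markers had an unadjusted edgeR p under 0.05. DESeq2 called none of the 6, while it called 2431 genes in this comparison.

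Of the 13249 genes with at least 10 counts in all 4 progenitor libraries, 83 (0.626%) had no count in any of the 8 other libraries, and Tfap2c was 1 of them. The other AP-2 genes gave no such signal, since Tfap2b, Tfap2d and Tfap2e had no count in any library and Tfap2a had at most 0.204 CPM. The progenitor libraries with Tfap2c were also those with markers of neuroblasts and oligodendrocyte precursors. Eomes, a marker of intermediate progenitors, had 346, 376, 140 and 89 counts in progenitors a to d and 0, 40, 1 and 0 counts in stem cells 1 to 4.

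**Figure D2:**
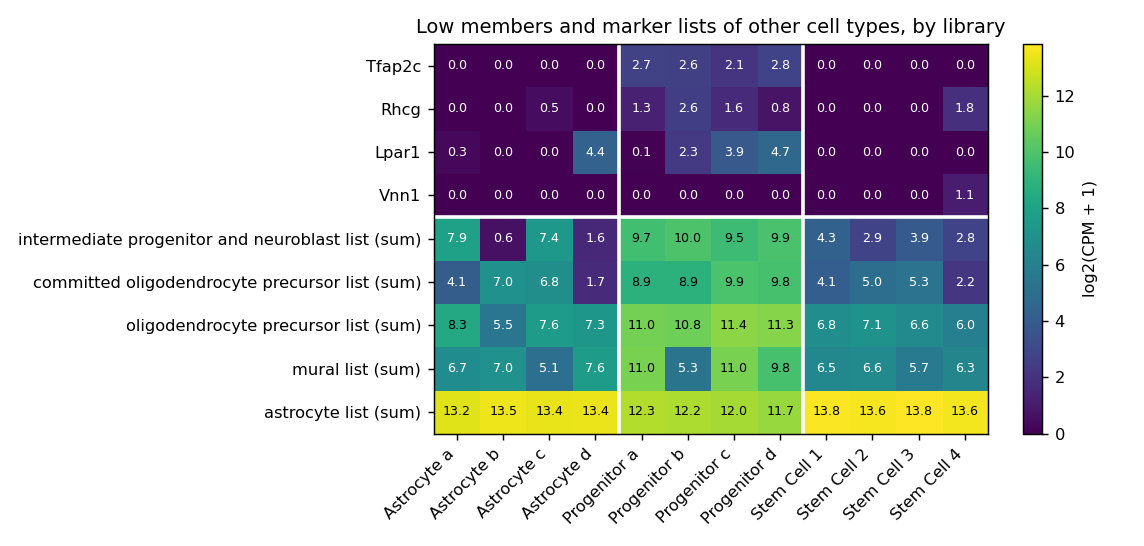
Levels of the 4 low markers (upper rows) and summed levels of marker lists of other cell types (lower rows) in each library, as log2(CPM + 1) given by colour and printed in each cell. White lines separate the cell types. Tfap2c is above 0 in the 4 progenitor libraries, where the neuroblast and oligodendrocyte precursor lists are also highest, whereas Vnn1 is above 0 in stem cell 4 alone.

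Thrsp, also known as Spot14, encodes a protein of lipid metabolism and marks slowly dividing stem cells of the adult hippocampus. It lies on the minus strand of chromosome 7 (97412938 to 97417730). Stem cells 1 to 4 had 988, 797, 1166 and 609 CPM and progenitors a to d had 382, 280, 391 and 324 CPM. Astrocytes a to d had 133, 337, 194 and 728 CPM. The stem cell libraries lay above all progenitor libraries and above 3 of the 4 astrocyte libraries, while astrocyte d exceeded stem cell 4. Progenitors varied least (344 ± 52 CPM) and astrocytes most (348 ± 267 CPM), with 890 ± 240 CPM in stem cells (SD, n = 4 each).

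The log2 fold change of Thrsp between stem cells and progenitors was 1.40 (SE 0.22, edgeR adjusted p = 0.0042). It was called with each library left out in turn, but not when all 12 libraries shared one estimate of the spread (edgeR adjusted p = 0.13). Over astrocytes the stem cells were higher by 1.36 (SE 0.48), which did not pass the test (edgeR adjusted p = 0.32), and the value was 2.03 without astrocyte d. Progenitors and astrocytes had a difference of -0.02 (SE 0.49, edgeR adjusted p = 0.99), which became 0.64 without astrocyte d. The progenitor mean of Thrsp also rose from 344 to 409 CPM with unscaled library sizes. With those sizes the median of all genes tested moved as well, from -0.03 to 0.40 (log2) for progenitors over astrocytes and from -0.08 to -0.33 for stem cells over progenitors.

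The 11 genes of fatty acid synthesis and its control that were listed with Thrsp could all be tested. Of these, edgeR called 3 as higher in stem cells than in progenitors, beside 3.66% of all genes tested. They were Srebf1, the master regulator of lipogenesis (log2 fold change 1.33, SE 0.19, edgeR adjusted p = 0.0028), Mid1ip1, the paralogue of Thrsp (1.19, SE 0.19, adjusted p = 0.005), and the desaturase Scd2 (0.99, SE 0.13, adjusted p = 0.0023). Their median over all 11 was 0.99, against -0.04 over all genes tested. Mid1ip1 had 410, 391, 463 and 286 CPM in stem cells 1 to 4, 146 to 201 CPM in progenitors and 106 to 216 CPM in astrocytes. Srebf1 and Scd2 were instead lower in progenitors than in astrocytes (-1.71, SE 0.30, and -1.05, SE 0.29, edgeR adjusted p = 0.015 and 0.049). The other 8 genes were not called in either comparison, the fatty acid synthase gene Fasn having 283 ± 48.6 CPM in stem cells, 179 ± 55.4 CPM in progenitors and 227 ± 109 CPM in astrocytes (SD, n = 4 each). Among these 8, Acly and Elovl6 had lower means in stem cells (122 and 43.3 CPM) than in progenitors (208 and 68.2 CPM).

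Fabp7, or brain lipid-binding protein, carries fatty acids in radial glia and astrocytes and is encoded on the plus strand of chromosome 10 (57784881 to 57788450). Stem cells 1 to 4 had 340, 295, 236 and 292 CPM, progenitors a to d had 202, 226, 394 and 338 CPM, and astrocytes a to d had 194, 55.7, 175 and 154 CPM. The stem cell libraries fell within the range of the progenitors, and every astrocyte library lay below both. The separation of astrocytes from progenitors was narrow, and with RLE-scaled library sizes astrocyte a (208 CPM) exceeded progenitor a (203 CPM). The log2 fold change was 0.04 (SE 0.24) for stem cells over progenitors, 1.01 (SE 0.43) for stem cells over astrocytes and 1.01 (SE 0.44) for progenitors over astrocytes. None was called by edgeR (adjusted p = 0.95, 0.45 and 0.25), and the first changed sign between alternatives, from -0.11 to 0.21. Of 9 other genes of its family, 2 could be tested between stem cells and progenitors. Fabp5 was higher in stem cells (0.75, SE 0.18, edgeR adjusted p = 0.029). Fabp3 was not called (-4.35, SE 1.62, edgeR adjusted p = 0.15) and had 12.8 to 33.5 CPM in progenitors against 0, 4.43, 0 and 0 CPM in stem cells. Fabp2, Fabp4 and Pmp2 had no count in any library.

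**Figure D3:**
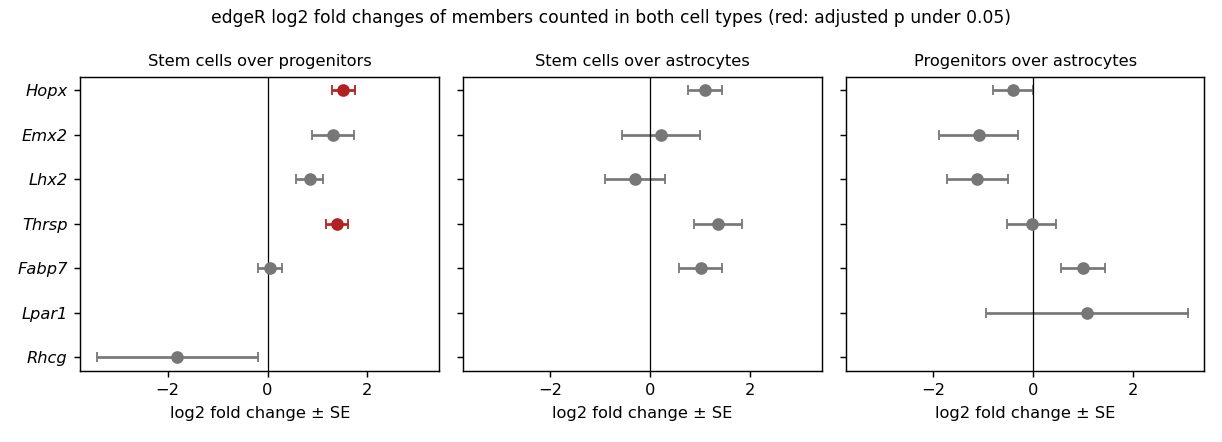
Log2 fold changes (horizontal axis) with their standard errors for the markers that could be tested by edgeR, in 3 comparisons. Tfap2c is left out because it had counts in 1 cell type alone. Red points have an adjusted p under 0.05, which holds for Hopx (1.52) and Thrsp (1.40) in stem cells over progenitors and for no marker shown in the other comparisons.

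Because Hopx and Fabp7 were abundant in every library, their ratio could be taken within each library, where library scaling cancels. Thrsp, Emx2 and Lhx2 were also counted in every library, but only this pair was tested, and the adjustment covers no other pair. The log2 ratio of the Hopx count to the Fabp7 count was 0.78, 0.74, 1.08 and 1.03 in stem cells and -0.25, -0.63, -0.46 and -0.96 in progenitors. Astrocytes had 0.41, 1.46, 0.23 and 1.41. Hopx was thus the more frequently counted of the pair in all 8 GLAST-positive libraries and the less frequently counted in all 4 progenitor libraries. This split at equal counts depends on transcript length (1516 exonic bases for Hopx and 1250 for Fabp7). Per kilobase of exon, Fabp7 exceeded Hopx in astrocyte c as well. The mean log2 ratio was 1.48 higher in stem cells than in progenitors and differed by -1.45 in progenitors from astrocytes (p = 0.029 in both cases by an exact two-sided permutation test, the smallest that 4 against 4 allows, and 0.043 adjusted over 3 comparisons). The difference between stem cells and astrocytes was 0.03 (exact permutation test, p = 0.971). The astrocyte ratios spread more widely (SD 0.65) than those of stem cells (SD 0.17) and progenitors (SD 0.30).

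**Figure D4:**
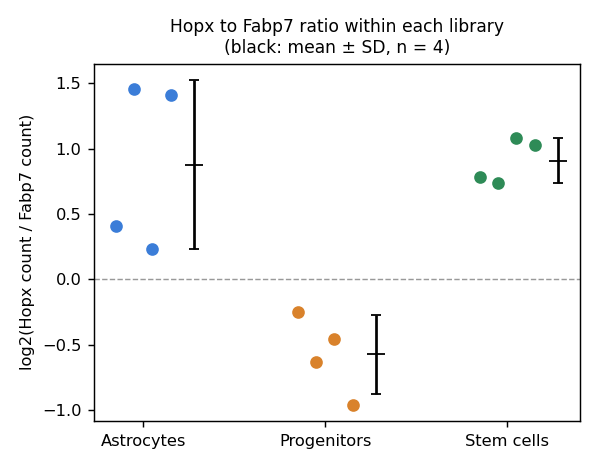
Log2 ratio of the Hopx count to the Fabp7 count in each library (points), with the mean and SD of the 4 libraries of each cell type in black. The dashed line marks equal counts, not divided by exonic length. All 4 progenitor libraries lie below it (-0.96 to -0.25) and all 8 astrocyte and stem cell libraries above it (0.23 to 1.46).

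Lpar1 encodes a receptor for lysophosphatidic acid that marks dentate stem cells in a reporter mouse and is also expressed in the oligodendrocyte lineage. It lies on the minus strand of chromosome 4 (58435255 to 58553898). Progenitors a to d had 1, 49, 146 and 281 counts (0.0686, 4.09, 13.5 and 24.2 CPM), and astrocytes a to d had 1, 0, 0 and 95 counts. All 4 stem cell libraries had 0 counts, which allows up to 0.0941 counts per 1000000 over their total, counting error only. Lpar1 was thus present in 3 progenitor libraries and in 1 astrocyte library, astrocyte d, at 19.4 CPM. The progenitor mean was at least 25.6-fold higher than in stem cells, set against 3 counts in each stem cell library. The bound was 14.4-fold without progenitor d, and progenitor a was itself below 3 counts. With only 3 libraries at 10 counts or more, Lpar1 did not enter the test between stem cells and progenitors. Without the filter the edgeR adjusted p was 0.051. Without progenitor a, under a filter of 3 libraries, it was 0.025, but the gene then entered through progenitors alone, which gives the call no support. Between progenitors and astrocytes the log2 fold change was 1.09 (SE 2.02, edgeR adjusted p = 0.84) and it was 7.03 without astrocyte d. Of 15282 genes with at least 10 counts in 3 or more progenitor libraries, 457 (2.99%) had no count in any stem cell library.

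In the progenitor libraries, Bmp4, a gene of committed oligodendrocyte precursors, had 21, 61, 144 and 419 counts, and it was at 0 in the other 8 libraries, astrocyte d included. Bmp4 was chosen after its values were seen, for its likeness to Lpar1, and its list as a whole did not share that order. The 5 markers of committed oligodendrocyte precursors, of which Enpp6 was at 0 in all progenitors, summed to 479, 473, 974 and 896 CPM in progenitors a to d, and their part in the Lpar1 counts was not tested. In astrocyte d they summed to 2.25 CPM. Of 9 further genes of lysophosphatidic acid signalling, 5 could be tested. Enpp2, which encodes the enzyme that makes the ligand, was lower in stem cells than in progenitors (log2 fold change -2.79, SE 0.56, edgeR adjusted p = 0.013), with 206 to 425 CPM in progenitors and 19 to 109 CPM in stem cells. In astrocytes it had 3, 2, 4 and 230 counts, the high value again in astrocyte d. Plpp3, a phosphatase that degrades the ligand, was higher in stem cells than in progenitors (1.33, SE 0.17, edgeR adjusted p = 0.0017) and lower in progenitors than in astrocytes (-1.27, SE 0.29, adjusted p = 0.021). The receptor genes Lpar4 and Lpar6 were counted in all 12 libraries, at 1.23 to 35.7 and 26.2 to 50.9 CPM in stem cells.

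Rhcg encodes an ammonium transporter best known from the kidney, on the minus strand of chromosome 7 (79593363 to 79617657). It had 21, 60, 23 and 8 counts in progenitors a to d, 0, 0, 0 and 14 counts in stem cells 1 to 4 and 0, 0, 2 and 0 counts in astrocytes a to d. All progenitor libraries were above all astrocyte libraries, whereas stem cell 4, at 2.6 CPM, lay inside the range of progenitors. The progenitor mean was 2.32 CPM, at least 3.87-fold higher than in astrocytes set against 3 counts in each library, a comparison in which Rhcg did not pass the filter. The bound was 2.37-fold without progenitor b. Between stem cells and progenitors the log2 fold change was -1.81 (SE 1.61, edgeR adjusted p = 0.6). Without stem cell 4 the edgeR adjusted p was 0.046, and without astrocyte c it was 0.049 against astrocytes. Both removals leave the other cell type at 0 in every library, so that Rhcg entered through progenitors alone and neither call gives support. Of the related genes, Rhag and Rhbg had no count in any library.

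Vnn1 encodes a membrane-anchored enzyme that releases vitamin B5 from pantetheine, on the plus strand of chromosome 10 (23894688 to 23905343). It had 6 counts in stem cell 4 (1.11 CPM) and 0 counts in the other 11 libraries, and entered no comparison. Over the progenitor libraries the 0 counts allow up to 0.0726 counts per 1000000, counting error only. Stem cell 4 was also the only stem cell library with Rhcg. It had the fewest total counts of all libraries (5031166). Vnn3, its paralogue, had no count in any library. Of 8 genes of the pathway (Vnn3 and genes of coenzyme A synthesis), 7 could be tested between stem cells and progenitors and none was called by edgeR, with the same outcome for the 6 that could be tested in the other comparisons.

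Between astrocytes and stem cells, 5 markers could be tested and edgeR called 0 of them, in a comparison in which 0.0468% of 12831 genes were called, all higher in astrocytes. Hopx, Thrsp and Fabp7 had an unadjusted edgeR p under 0.05 (0.0085, 0.016 and 0.036), as had 1226 of all genes tested. DESeq2 also called 0 markers, while it called 635 genes in this comparison. The paper, with DESeq2 after CLEAR, its filter on read coverage, reports Hopx and Fabp7 as significantly higher in stem cells than in astrocytes. It also reports Fabp7 as significantly higher in progenitors than in astrocytes, which was not called here. For progenitors against stem cells it reports Hopx as different and Fabp7 as not, as found here. The paper's text also gives Hopx as significantly higher in astrocytes than in progenitors, whereas its table marks that pair as not significant. Neither edgeR nor DESeq2 called Hopx in that pair here. Hopx and Fabp7 were higher in every stem cell library than in every astrocyte library, which held for 6.28% of the genes tested. Between progenitors and stem cells, the libraries of Hopx, Thrsp and Lhx2 did not overlap and were higher in stem cells, against 7.5% of the genes tested. Apart from Tfap2c, no tested marker was higher in every progenitor library, which held for 11.8% of the genes tested. Between astrocytes and progenitors, Fabp7 was higher in every progenitor library, against 15.2% of the genes tested, though not with RLE-scaled sizes. Tfap2c was higher in every progenitor library in both comparisons. It passed the filter through progenitors alone, so that it had to differ, and this gives no support. Lpar1 against stem cells and Rhcg against astrocytes were also higher in every progenitor library, but neither passed the filter there. No marker was higher in every astrocyte library, which held for 5.84% of genes against progenitors and for 3.69% against stem cells. The 3 comparisons share libraries in pairs, so they are not independent of each other.

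Per kilobase of exon, which allows levels to be set side by side between genes, stem cells had 407 CPM per kb of Thrsp, 359 of Hopx and 233 of Fabp7. Lhx2 (18.3) and Emx2 (15.1) were far lower. In progenitors the order of means began with Fabp7 (232 CPM per kb), followed by Thrsp (157) and Hopx (128). In astrocytes it was Hopx (170), Thrsp (159) and Fabp7 (116), whose libraries overlapped. Single libraries also departed from the order in the other cell types. Thrsp was highest in progenitor a, Hopx was above Thrsp in progenitor c, and Hopx was highest in stem cell 4. Among all genes of a library, ranked by CPM per kb, Thrsp had a median rank of 83.5 in stem cells (range 66 to 119) and Hopx of 99.5 (81 to 108), while Fabp7 had a median rank of 123 in progenitors (62 to 184) and 153 in stem cells (135 to 204). Tfap2c reached 1.33 CPM per kb in progenitors, near the 1.04 of Rhcg. At least 10 counts were found for 5, 5, 5 and 6 of the 9 markers in stem cells 1 to 4, for 7, 8, 8 and 7 in progenitors a to d and for 5, 5, 5 and 6 in astrocytes a to d. The larger number in progenitors came with more genes of at least 10 counts in those libraries (16389 to 17015, against 13368 to 14175 in stem cells and 9430 to 11655 in astrocytes). With counts thinned to the smallest library, the mean number of markers was 7.31 in progenitors and 5.25 in each other cell type. At a threshold of 10 CPM it was 5.5 in progenitors, 5 in stem cells and 5.25 in astrocytes.

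The patterns of the 5 abundant markers over the 12 libraries were compared with those of 5622 genes counted 10 times or more in each library, as a description in which points share depth and cell type. After Hopxos, those most like Hopx were Gm5138 and Gm3272 (r = 0.92 and 0.91). Thrsp was most like Prdx1, Dazap2 and Hapln1 (r = 0.95, 0.95 and 0.94), Fabp7 like Psmb4, Hsd17b4 and Pcmtd2 (0.93, 0.90 and 0.89), Emx2 like Ntsr2, Gli3 and BC002163 (0.89 each) and Lhx2 like Slc26a6, Sirpa and Ranbp2 (0.94, 0.93 and 0.91). Among the markers themselves, Hopx and Thrsp had r = 0.75, whereas Lhx2 had -0.22 with Thrsp and -0.34 with Fabp7.

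Of 20 further genes used as markers of radial glia-like cells, 18 could be tested between stem cells and progenitors. Of these, edgeR called 8 as higher in stem cells, beside 3.66% of all genes tested, and 1 as lower, beside 4.95%. The 8 include Slc1a3, whose protein separated the 2 cell types in the sort. The highest fold was that of Prom1, which encodes the stem cell surface protein prominin 1 (log2 fold change 2.67, SE 0.37, edgeR adjusted p = 0.0027), with 48.8 to 91.7 CPM in stem cells and 7.96 to 11.2 CPM in progenitors. Aldoc and Sox9 followed at 1.93 and 1.77 (edgeR adjusted p = 0.00027 and 0.001), and the lower gene was Emx1, which passed the filter through progenitors alone. Vim (123 against 174 CPM), Hes5, Frzb and Riiad1 also had lower means in stem cells than in progenitors and were not called. Between progenitors and astrocytes, Aldoc and Apoe were lower in progenitors (-1.09 and -1.10, edgeR adjusted p = 0.016 and 0.0027) and the other 16 genes tested were not called. Between astrocytes and stem cells 0 of 16 were called by edgeR. Several of these genes are also expressed in astrocytes.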

How the data were processed

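RNA was measured in 12 libraries, 4 each of sorted astrocytes, progenitors and stem cells. The authors trimmed reads with AdapterRemoval, removed ribosomal, mitochondrial and PhiX reads, aligned the rest to GRCm38p4 with HISAT2 2.0.6 and counted genes of GENCODE M14 with featureCounts in unstranded mode. The authors deposited raw counts per gene without normalization, with 5031166 to 12535028 counts per library. No molecular identifiers are named, so amplified copies are counted separately, and floors of 3 counts cover counting error only. Stem cell columns carry numbers 1 to 4, whereas those of astrocytes and progenitors give the cell type alone and were lettered a to d. The paper used DESeq2 after its coverage filter, CLEAR, which needs the coverage of each base and was not run.

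Each pair of cell types was tested on its own 8 libraries with edgeR 4.0.16 in R 4.3.3 (TMM, quasi-likelihood test, at least 10 counts in at least 4 libraries, or in 3 when a library was left out), with adjustment by Benjamini-Hochberg over every gene tested and a threshold of 0.05. Standard errors are the size of the log2 fold change over the square root of F. CPM used TMM sizes over all 12 libraries, and CPM per kb the exonic length in GENCODE M21 (GRCm38), which also gave coordinates. Ratios were tested by exact two-sided permutation. The fits were tested on simulated data. Alternatives were DESeq2 1.42.0, other size factors, no filter, at least 10 counts in every library, thinned counts, all 12 libraries in one fit, unscaled or RLE-scaled library sizes, a log2 scale and each library left out.

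The members and gene lists were chosen with earlier results of these data known. Genes named besides the members are Slc1a3 and Nes, at most 4 called genes of each list by size of change, list genes without 10 counts in any library, and the 3 genes most like each abundant member. Eomes, Bmp4, Enpp6, Fasn, Fabp3, Lpar4, Lpar6, Hopxos and Emx2os were named after their values were seen. The same holds for Grin2c, Fgfr3, S100b, Slc6a11, Itih3, Acly, Elovl6, Vim, Hes5, Frzb, Riiad1 and Pdgfrb.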

Additional observations from a re-analysis of the deposited data

Results flagged for a closer look

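In 4 of 25 groups of 4 libraries, 1 library stood apart from the other 3 by Dixon's criterion. Chance does this in about 1 in 20 groups of continuous values, a rate that does not hold for 3 of the 4, in which the other libraries were all at 0 and any count stands apart. Lpar1 was at 19.4 CPM in astrocyte d and near 0 in the other astrocytes. Rhcg was at 0.395 CPM (2 counts) in astrocyte c and at 0 in the other astrocytes. In stem cell 4, Rhcg was at 2.6 CPM and Vnn1 at 1.11 CPM, and both were at 0 in the other stem cells. All 4 values belong to genes with few counts, and each rests on a single library.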

How the results depend on the processing

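No paired analysis was possible because the astrocyte and progenitor columns carry no replicate numbers. Hopx stayed called in stem cells over progenitors in all 6 alternatives with all libraries and in 8 of 8 fits without a library (log2 fold change 1.39 to 1.75), and Thrsp in 5 of 6 and 8 of 8 (1.25 to 1.54). Between progenitors and stem cells, DESeq2 called 5 members rather than 3, while it called 2394 of all genes and edgeR 1327. One fit of all 12 libraries called 2 members (without Thrsp) and at least 10 counts in every library 2 (without Tfap2c). Leaving out a library gave 3 to 4. Between astrocytes and progenitors, 1 member was called, but 0 without a count filter and 0 with at least 10 counts in every library, which drops Tfap2c, and 1 to 2 without a library. Between astrocytes and stem cells every alternative called 0. Values near 0 changed sign. The Thrsp log2 fold change of progenitors over astrocytes was 0.01 without a filter, 0.31 with 10 counts in every library and -0.29 to 0.64 without a library, and the difference in means was 0.274 on the log2(CPM + 1) scale and 101 CPM with unscaled sizes, with which that of Hopx was 7.96 CPM. For Fabp7, stem cells over progenitors gave -0.05 with 10 counts in every library and -0.11 to 0.21 without a library, or -60.6 CPM with unscaled and -7.01 CPM with RLE-scaled sizes. For stem cells over astrocytes, leaving out a library gave -0.08 to 0.45 for Emx2 and -0.60 to 0.02 for Lhx2. The log2 ratio of Hopx to Fabp7 differed by -1.67 to -1.26 in progenitors from astrocytes, by 1.36 to 1.59 in stem cells from progenitors and by -0.18 to 0.23 in stem cells from astrocytes when a library was left out. With 7 libraries the exact permutation test cannot go below p = 0.057. The causes of these changes were not tested. For Lpar1, Rhcg and Vnn1, 1 library decides the value of a cell type. The Fabp7 difference of progenitors over astrocytes was 142 CPM with RLE-scaled sizes (exact permutation test, p = 0.057) and 145 CPM otherwise (p = 0.029).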
